A study of Homo sapiens with 6 samples.

Results

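Desmosomes and tight junctions are the structures that hold epithelial cells to each other and seal the space between them, and the signals of 33 genes that encode their proteins were followed across a control and a Twist-carrying line of human mammary epithelial cells. The genes are 13 desmosomal genes, 8 claudins and 12 other tight junction, polarity and adhesion genes, among the last EPCAM. They form a list of gene names, drawn up with earlier results of these data known, and were read from array probe sets annotated to 1 gene symbol. Of the 33 genes, 32 had such a probe set among 19775 genes read from the arrays, through 70 of 41091 probe sets. The remaining gene, F11R, was not analysed here. A total of 31 genes gave a signal above the floor of detection on at least 1 array, and 20 did so on all 6.

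The Twist line was HMLE infected with a pBabe-Twist retrovirus, and the control line was HMLE infected with a pBabe-shGFP retrovirus, which carries a hairpin against the jellyfish protein GFP. HMLE is a line of human mammary epithelial cells immortalised with telomerase and a viral large-T antigen, and both lines share this origin and the same growth medium with insulin, hydrocortisone and EGF. The Twist protein is a basic helix-loop-helix transcription factor and an inducer of the epithelial-mesenchymal transition (EMT). Cells of each line were kept in the solvent DMSO or in Cmp302, a compound that the labels name by code alone, at 5 µM or 10 µM for 6 h by the sample titles and the treatment protocol. Source names and tags of the same samples instead read 2 µM, with 4 h for the samples titled 5 µM and 8 h for those titled 10 µM, so the Cmp302 arrays are called the 5 µM and the 10 µM array by their titles and the step between them may be dose or time. There was 1 Affymetrix U133 Plus array per group, 6 in all, and a difference between 2 arrays cannot be checked against replicates. The labels do not say if a line was a pool or a clone of infected cells.

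A desmosome joins neighbouring cells through desmosomal cadherins, the desmogleins and desmocollins, whose tails bind plakoglobin and plakophilins and, through desmoplakin, the keratin filaments. A tight junction is built from claudins and other membrane proteins such as occludin, which bind scaffold proteins of the ZO family under the membrane, and the polarity proteins PAR3, PAR6 and Crumbs set its place at the apical side of the cell. Loss of both kinds of junction is a textbook feature of EMT, and several repressors of that programme bind E-box sequences in promoters of epithelial genes.

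Values are log2 signals, so a difference of 1 is a 2-fold difference. Signals under the median of all values, 3.71, were set to that floor, and a difference with 1 side at the floor is a bound. The 3 signals of a line are given in the order DMSO, 5 µM and 10 µM. Between 11646 and 11841 genes lay above the floor per array. Over all genes, Pearson's r was 0.97 to 0.996 between Twist arrays, 0.995 to 0.997 between control arrays and 0.869 to 0.88 between the lines. Over the 31 junction genes, r between the lines was only 0.349 to 0.37. These coefficients are across genes, which are not independent replicates, and share each array's processing.

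The mean contrast of 3′ over middle control probe sets of GAPDH and ACTB, a sign of RNA quality, was 0.955, 0.355 and 0.445 in the Twist line and 0.28, 0.45 and 0.835 in the control line. The Twist DMSO array and the control 10 µM array therefore stood above the other arrays of their lines on this measure, on the log2 scale. TWIST1 read 11.57, 11.96 and 11.35 in the Twist line and 10.70, 10.51 and 10.48 in the control line (fitted difference 1.06 ± 0.21 SE, limma adjusted p 0.0166). The labels do not say if its probe set reads the introduced gene. Of the basal mammary keratins, KRT5 was at the floor on the 3 Twist arrays and read 13.38, 12.82 and 12.58 in the control line, while KRT14 read 3.96, 4.12 and 3.88 in the Twist line and 13.84, 13.56 and 13.37 in the control line. All 4 basal markers tested were lower in the Twist line, and 8 of 9 mesenchymal markers were higher. Of all genes tested, 14.9% were lower and 13.7% higher. Of 5 luminal mammary markers tested, 4 were lower and 1, GATA3, was higher in the Twist line. KRT8 read 5.51, 5.87 and 5.68 in the Twist line and 12.37, 12.05 and 12.19 in the control line. KRT18 read 8.26, 9.26 and 9.36 against 13.37, 13.13 and 12.63, and KRT19 was at or near the floor in both lines. The epithelial label is thus borne out by KRT5, KRT14, KRT8 and KRT18 in the control line. In the Twist line KRT8, KRT18 and MUC1 (7.34, 7.92 and 8.03) were lower but stayed above the floor. Of 8 markers of blood, endothelial and fat cells, 5 (PTPRC, CD3E, VWF, CDH5 and ADIPOQ) were at the floor on all arrays. The summed log2 level of these 8 markers was 40.43 to 41.07 in the Twist line and 34.49 to 35.59 in the control line, with PECAM1 and FABP4 higher in the Twist line, and their part in the results was not tested.

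Most junction genes were lower in the Twist line than in the control line, but the loss was uneven, and some genes of each group were close to level or higher. In a limma fit over the 6 arrays with treatment as a factor, 23 of the 31 junction genes tested were lower in the Twist line and 1, CLDN11, was higher at an adjusted p under 0.05. Over all 12478 genes tested, 14.9% were lower and 13.7% higher. The spread in this fit is that of the line difference across the 3 treatments, not a spread between replicates. With genes at the floor taken at it, the median difference was -2.06 over the junction genes and -0.01 over all genes. Signals came from whole cultures, so fewer cells that express a gene and less RNA per cell cannot be told apart. Because 9 of the 31 genes were at the floor on all Twist arrays, they entered the fit only through the control line and could differ in 1 direction only, and CLDN11 entered only through the Twist line. The fitted differences of these genes and of CLDN11 are bounds too, and their SEs hold no spread below the floor. Among the 20 junction genes above the floor on all 6 arrays, 14 were lower and 0 higher in the Twist line, against 11.1% lower and 11.9% higher of 10787 such genes. Without the Twist DMSO or the control DMSO array the fit called CLDN12, PKP4 and TJP1 lower and CLDN1 and PARD3 higher as well. It also called more of all genes, 3713 higher without the Twist DMSO array against 1706 with all arrays. With treatment as a factor, leaving out either array of a treatment, or both, gives the same line difference. These fits are thus 1 comparison of the lines on the Cmp302 arrays, with 1 residual degree of freedom, and not separate checks.

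**Figure D1:**
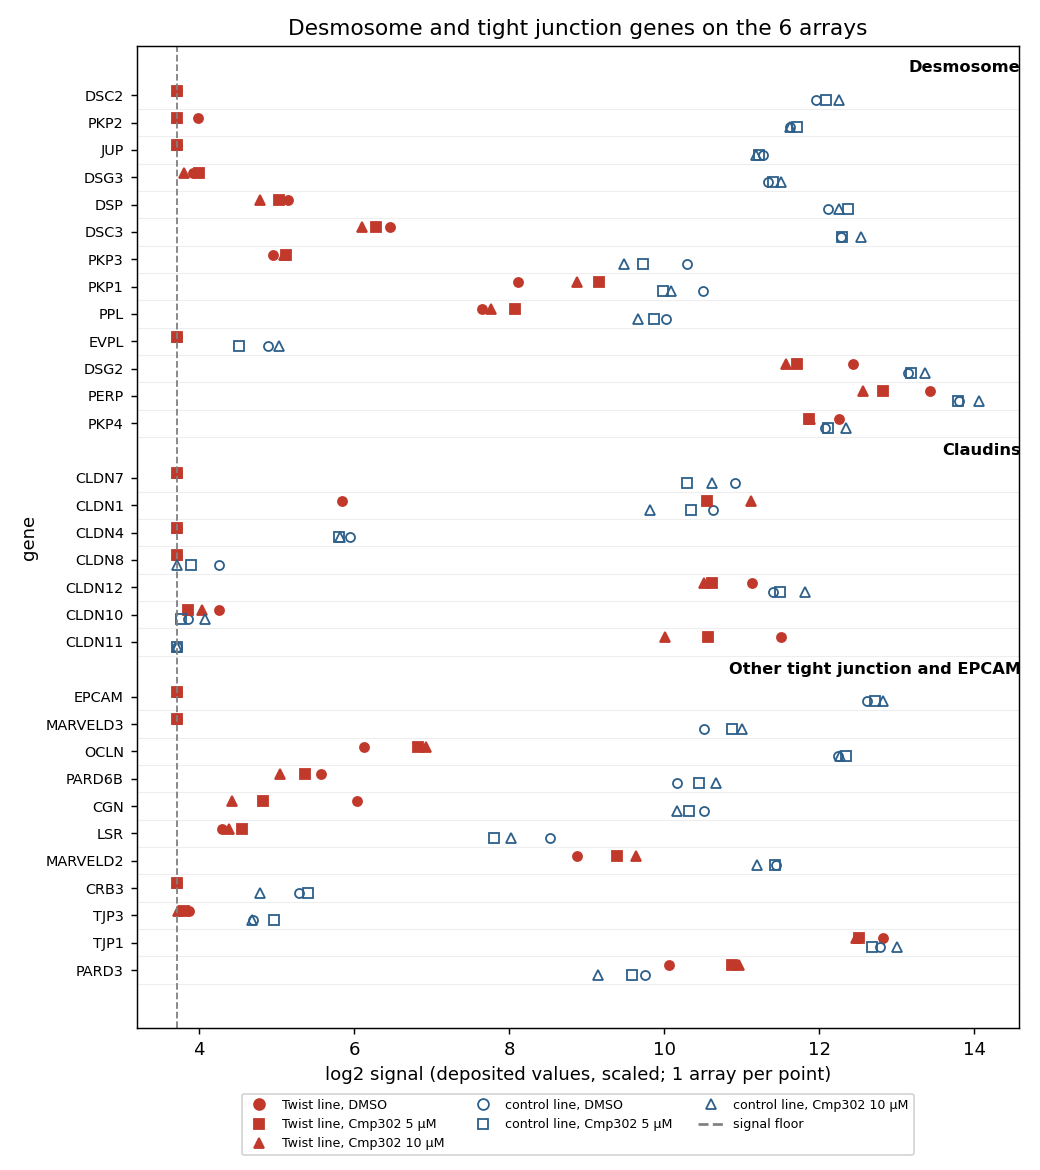
Log2 signals of the 31 junction genes above the floor (x axis; 1 array per point) by gene and group (rows), with Twist arrays filled and control arrays open; circles stand for DMSO, squares for 5 µM and triangles for 10 µM, and the dashed line is the floor of 3.71. Twist points lie left of control points for most rows, while PKP4, CLDN8, CLDN10 and TJP1 overlap, CLDN1 spans the control points, and CLDN11 and PARD3 lie to the right.

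The desmosomal genes were lower as a group, 12 of 13 at a limma adjusted p under 0.05, against 14.9% of all genes. Their median fitted difference was -4.79. The desmosomal cadherins differed among themselves. DSC2, the desmocollin found in most epithelia, was at the floor on all 3 Twist arrays and read 11.96, 12.09 and 12.25 in the control line, at least 303-fold lower on the Twist DMSO array. DSC3, a desmocollin of basal stratified epithelium, read 6.46, 6.28 and 6.10 in the Twist line and 12.28, 12.30 and 12.54 in the control line. DSG3, its partner desmoglein in basal keratinocytes, read 3.92, 4.00 and 3.80 in the Twist line, just above the floor, and 11.34, 11.41 and 11.51 in the control line. The lines did not overlap for any of these cadherins, and the fitted differences were -8.39 ± 0.20 for DSC2, -6.10 ± 0.23 for DSC3 and -7.52 ± 0.20 for DSG3 (SE, limma, adjusted p at most 3.5e-05).

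DSG2, the most widely expressed desmoglein, was the exception among the cadherins. Its brightest probe set read 12.44, 11.71 and 11.57 in the Twist line and 13.15, 13.19 and 13.36 in the control line, a fitted difference of -1.33 ± 0.25 (SE, limma adjusted p 0.0146). The lines did not overlap, yet under DMSO the difference was only 1.64-fold. A second DSG2 probe set gave 4.96, 5.26 and 5.11 in the Twist line and 8.59, 8.35 and 7.72 in the control line, a fitted difference of -3.11. The 2 probe sets thus had the same direction between the lines and differed in size. The call on the brightest probe set was lost without either 5 µM array (limma adjusted p 0.0863 without the control array and 0.096 without the Twist array) and with no filter on low signals. Both fits without a 5 µM array give the same line difference, -1.25, so they are 1 check.

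The cadherin genes lie in a cluster on chromosome 18. In the RefSeq annotation DSC3 and DSC2 are next to each other, DSC1, DSG1 and DSG4 follow as the 3 protein-coding genes between DSC2 and DSG3, and DSG3 is next to DSG2. Under DMSO, DSG3 was 171-fold lower in the Twist line, whereas its direct neighbour DSG2 differed by -0.71 on the log2 scale for the brightest probe set and by -3.63 for the second. DSG4, of hair and other stratified epithelia, was also at the floor on all Twist arrays, against 6.39, 6.06 and 5.50 in the control line, and DSC1 and DSG1 were at the floor on all 6 arrays. The start regions of DSP, DSG3 and DSG2 are shown because DSP and DSG3 read 5.15 or less in the Twist line, while the brightest DSG2 probe set read 11.57 or more there. Each runs from 250 bases before to 50 after the RefSeq start in GRCh38.p14, at chr6:7541421-7541720 (plus strand) for DSP, chr18:31447491-31447790 (plus strand) for DSG3 and chr18:31497927-31498226 (plus strand) for DSG2, with matches to the E-box letters CANNTG in capitals.
DSP: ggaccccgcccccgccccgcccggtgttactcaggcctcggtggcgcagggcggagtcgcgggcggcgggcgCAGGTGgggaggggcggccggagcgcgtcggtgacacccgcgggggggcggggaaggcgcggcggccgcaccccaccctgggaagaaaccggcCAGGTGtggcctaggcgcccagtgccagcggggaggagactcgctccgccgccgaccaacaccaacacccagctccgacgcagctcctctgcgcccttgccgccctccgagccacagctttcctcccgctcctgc
DSG3: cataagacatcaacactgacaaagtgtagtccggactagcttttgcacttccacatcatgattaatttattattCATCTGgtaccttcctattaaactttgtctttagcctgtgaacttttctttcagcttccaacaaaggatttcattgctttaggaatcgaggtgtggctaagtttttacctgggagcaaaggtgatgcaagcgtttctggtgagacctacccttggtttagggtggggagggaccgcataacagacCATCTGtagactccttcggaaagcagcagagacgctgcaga
DSG2: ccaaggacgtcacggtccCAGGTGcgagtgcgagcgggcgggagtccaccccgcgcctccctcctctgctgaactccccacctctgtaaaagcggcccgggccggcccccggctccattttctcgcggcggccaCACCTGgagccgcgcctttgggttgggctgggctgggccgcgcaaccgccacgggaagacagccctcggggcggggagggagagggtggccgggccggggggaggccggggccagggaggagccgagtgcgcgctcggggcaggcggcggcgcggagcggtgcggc
DSP held CAGGTG at 2 places, DSG3 held CATCTG at 2 places, and DSG2 held CAGGTG and CACCTG at 1 place each. A match is a run of letters and does not show that a factor binds there.

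The plaque proteins that link the cadherins to keratin were among the genes with the widest differences. DSP, desmoplakin, the linker to the keratin filaments, read 5.15, 5.03 and 4.78 in the Twist line and 12.11, 12.37 and 12.26 in the control line, 125-fold lower under DMSO. JUP, plakoglobin, which serves both desmosomes and adherens junctions, was at the floor on all Twist arrays against 11.28, 11.22 and 11.18 in the control line. PKP2, the plakophilin of simple epithelia and heart, read 3.98 on the Twist DMSO array and was at the floor on both Twist Cmp302 arrays, against 11.62, 11.72 and 11.62 in the control line. These genes sat at or near the floor in the Twist line, with fitted differences of -7.26 ± 0.22, -7.52 ± 0.19 and -7.85 ± 0.21 in this order (SE, limma adjusted p 2.61e-05 each).

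The other plakophilins and the plakins showed smaller differences. PKP3, a plakophilin of most desmosomes, read 4.95, 5.12 and 5.09 in the Twist line and 10.30, 9.73 and 9.48 in the control line. PKP1, the plakophilin of stratified epithelium, read 8.11, 9.16 and 8.87 in the Twist line and 10.50, 9.98 and 10.09 in the control line (fitted difference -1.48 ± 0.35 SE, limma adjusted p 0.0292), and its call was lost with no filter on low signals (adjusted p 0.173). PPL, periplakin, read 7.65, 8.08 and 7.76 in the Twist line and 10.02, 9.87 and 9.66 in the control line (-2.02 ± 0.23, limma adjusted p 0.00202). The lines stayed apart for these 3 genes while the Twist line kept PKP1 and PPL well above the floor. EVPL, envoplakin, was at the floor on all Twist arrays and low in the control line as well, at 4.89, 4.52 and 5.03.

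PKP4 was close to level between the lines on its brightest probe set, and PERP was lower by an amount that varied among its probe sets. PKP4, a relative of the plakophilins that is also found at adherens junctions, read 12.26, 11.87 and 11.88 in the Twist line and 12.08, 12.12 and 12.35 in the control line. The lines overlapped, and it was the 1 desmosomal gene that did not pass the test (-0.18 ± 0.20 SE, limma adjusted p 0.584). The other PKP4 probe sets had fitted differences of -0.34, -0.62, -0.68 and -0.16. Only the one at -0.68, low in the control line and at the floor on all Twist arrays, passed among probe sets (limma adjusted p 0.0133). PERP, a membrane protein required for stable desmosomes in skin, read 13.43, 12.83 and 12.56 in the Twist line and 13.81, 13.79 and 14.06 in the control line (-0.95 ± 0.25, limma adjusted p 0.0424). That brightest PERP probe set carries the suffix for possible cross-hybridisation, and 3 further PERP probe sets differed more widely, by -3.01, -3.83 and -4.55. The PERP call on the brightest probe set was lost without either 5 µM array (adjusted p 0.236 to 0.243) and without either 10 µM array (0.171 to 0.184). It was also lost under quantile normalization, with eBayes without the signal trend and with no filter, so that 8 of 17 alternatives called PERP, all of the 17 with the same direction. Leaving out either array of a treatment, or both, gives the same line difference, so these 17 are not all separate checks.

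The claudins, the strand-forming proteins of tight junctions, did not move as a group. Of 7 tested, 2 were lower, 1 was higher and 4 did not pass the test, against 14.9% lower and 13.7% higher of all genes. The 1 higher of 7 is near the share of all genes. CLDN7, a claudin of the lateral membrane that binds EPCAM, was at the floor on all Twist arrays and read 10.92, 10.29 and 10.62 in the control line, at least 148-fold lower under DMSO (fitted difference -6.90 ± 0.22 SE, limma adjusted p 2.66e-05). CLDN4, a sealing claudin, was at the floor on all Twist arrays and read 5.95, 5.81 and 5.82 in the control line (-2.15 ± 0.12, limma adjusted p 0.000141). CLDN11, known from myelin and the testis barrier of mice, ran the other way, with 11.51, 10.57 and 10.01 in the Twist line and the floor on all 3 control arrays. It was at least 222-fold higher in the Twist line under DMSO (fitted difference 6.98 ± 0.33 SE, limma adjusted p 7.4e-05). This rests on 1 of 3 CLDN11 probe sets, since the other two were at the floor on all 6 arrays.

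CLDN1, a claudin required for the skin barrier in mice, depended on the treatment. It read 5.84, 10.55 and 11.12 in the Twist line and 10.63, 10.35 and 9.82 in the control line. It was 27.7-fold lower in the Twist line under DMSO, level on the 5 µM arrays (0.20) and 2.46-fold higher in the Twist line on the 10 µM arrays, so that no single line difference describes it (fitted -1.10 ± 1.16 SE, limma adjusted p 0.562). The second CLDN1 probe set read 3.71, 5.29 and 5.66 in the Twist line, the first of these at the floor, and 6.70, 6.30 and 6.06 in the control line. Both probe sets were lower in the Twist line under DMSO and higher in that line with Cmp302 than without it. They disagreed on the line difference with Cmp302, where the second stayed lower in the Twist line, by -1.015 at 5 µM and -0.40 at 10 µM. The level and higher signals with Cmp302 therefore rest on the brightest probe set alone.

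The remaining claudins were close to level or near the floor. CLDN12, a widely expressed claudin, read 11.14, 10.62 and 10.52 in the Twist line and 11.40, 11.50 and 11.82 in the control line. The lines did not overlap, but the difference did not pass the test (-0.82 ± 0.25 SE, limma adjusted p 0.0694). CLDN8 was at the floor on all Twist arrays and reached at most 4.26 in the control line, and CLDN10 read 4.26, 3.86 and 4.04 in the Twist line and 3.86, 3.76 and 4.08 in the control line. CLDN3, a close relative of CLDN4, was at the floor on all 6 arrays. The start regions of CLDN1, CLDN7 and CLDN11 are shown because these claudins gave the treatment-dependent, the lower and the higher pattern, from GRCh38.p14 at chr3:190322397-190322696 (minus strand), chr17:7263164-7263463 (minus strand) and chr3:170418618-170418917 (plus strand), with CANNTG matches in capitals.
CLDN1: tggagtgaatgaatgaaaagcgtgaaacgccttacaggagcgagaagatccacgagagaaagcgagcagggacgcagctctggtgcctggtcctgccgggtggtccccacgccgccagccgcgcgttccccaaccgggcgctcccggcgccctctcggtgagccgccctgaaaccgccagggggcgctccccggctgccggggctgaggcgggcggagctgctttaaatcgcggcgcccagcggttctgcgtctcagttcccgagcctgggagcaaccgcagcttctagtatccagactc
CLDN7: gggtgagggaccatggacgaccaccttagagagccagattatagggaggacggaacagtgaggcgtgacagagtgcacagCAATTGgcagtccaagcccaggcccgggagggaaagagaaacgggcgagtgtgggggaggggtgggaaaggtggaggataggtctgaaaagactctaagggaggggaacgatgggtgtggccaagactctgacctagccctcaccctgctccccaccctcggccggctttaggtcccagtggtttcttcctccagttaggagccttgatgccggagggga
CLDN11: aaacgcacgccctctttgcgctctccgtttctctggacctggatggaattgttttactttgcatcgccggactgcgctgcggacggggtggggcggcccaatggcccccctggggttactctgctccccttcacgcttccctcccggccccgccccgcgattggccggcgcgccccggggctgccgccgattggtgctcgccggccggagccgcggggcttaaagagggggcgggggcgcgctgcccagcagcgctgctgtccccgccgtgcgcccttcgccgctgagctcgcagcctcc
The windows shown for CLDN1 and CLDN11 held no CANNTG, and that shown for CLDN7 held 1, CAATTG. RefSeq lists a further start for CLDN7 and for CLDN11, and the start listed first is shown. The second CLDN7 window, chr17:7262429-7262728 (minus strand), held 5 CANNTG, all 5 of them CACCTG or CAGGTG, and the second CLDN11 window held 1 CANNTG.

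Of the 11 other tight junction, polarity and adhesion genes tested, 9 were lower in the Twist line, against 14.9% of all genes. EPCAM, an adhesion molecule of simple epithelia, was at the floor on all Twist arrays and read 12.62, 12.72 and 12.83 in the control line, at least 479-fold lower under DMSO (fitted difference -9.01 ± 0.20 SE, limma adjusted p 2.61e-05), the widest difference of the 31 genes. MARVELD3, a membrane protein related to occludin, was at the floor on all Twist arrays and read 10.51, 10.87 and 11.00 in the control line. OCLN, occludin, read 6.13, 6.83 and 6.93 in the Twist line and 12.24, 12.35 and 12.27 in the control line (-5.66 ± 0.24, limma adjusted p 5.42e-05). MARVELD2, tricellulin, the relative of occludin at contacts of 3 cells, read 8.88, 9.39 and 9.64 in the Twist line and 11.44, 11.43 and 11.20 in the control line (-2.06 ± 0.26, limma adjusted p 0.00299). The 3 relatives were thus lower together, with MARVELD2 the least. OCLN and MARVELD2 are next to each other on chromosome 5 in the RefSeq annotation.

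LSR, the receptor that recruits tricellulin to contacts of 3 cells, read 4.30, 4.55 and 4.39 in the Twist line and 8.53, 7.81 and 8.02 in the control line. CGN, cingulin, a plaque protein, read 6.04, 4.83 and 4.42 in the Twist line and 10.51, 10.32 and 10.17 in the control line (-5.24 ± 0.31 SE, limma adjusted p 0.000175). PARD6B, a PAR6 polarity protein, read 5.57, 5.36 and 5.04 in the Twist line and 10.17, 10.45 and 10.67 in the control line. No Twist array reached the lowest control array for these genes. CRB3, the Crumbs protein of epithelia, was at the floor on all Twist arrays and read 5.29, 5.41 and 4.79 in the control line, and TJP3, the ZO-3 scaffold, read 3.87, 3.80 and 3.73 in the Twist line and 4.70, 4.96 and 4.68 in the control line. Both passed the test, with fitted differences of -1.45 ± 0.16 and -0.98 ± 0.12, from low signals in both lines.

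TJP1 and PARD3 did not pass the test. TJP1, the ZO-1 scaffold that also serves other cell contacts, read 12.83, 12.52 and 12.48 in the Twist line and 12.78, 12.68 and 13.00 in the control line, and the lines overlapped (-0.21 ± 0.19 SE, limma adjusted p 0.485). Its second probe set read 6.45, 7.02 and 6.97 in the Twist line and 7.91, 7.77 and 7.91 in the control line, and was lower in a fit over all probe sets (-1.05, limma adjusted p 0.0273). TJP1 was also called lower with the median over its probe sets (-0.63). PARD3, the PAR3 polarity scaffold, read 10.06, 10.87 and 10.97 in the Twist line and 9.75, 9.59 and 9.15 in the control line. Every Twist array lay above every control array, yet the difference did not pass the test (1.13 ± 0.33, limma adjusted p 0.056). In the fit over all probe sets, 2 of 4 PARD3 probe sets passed, at 0.64 and 1.04. PARD3 was one of 2 junction genes, with CLDN11, whose Twist arrays all lay above the control arrays, against 24.2% of all genes. For 24 of the 31 junction genes the Twist arrays all lay below the control arrays, against 25.5% of all genes.

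**Figure D2:**
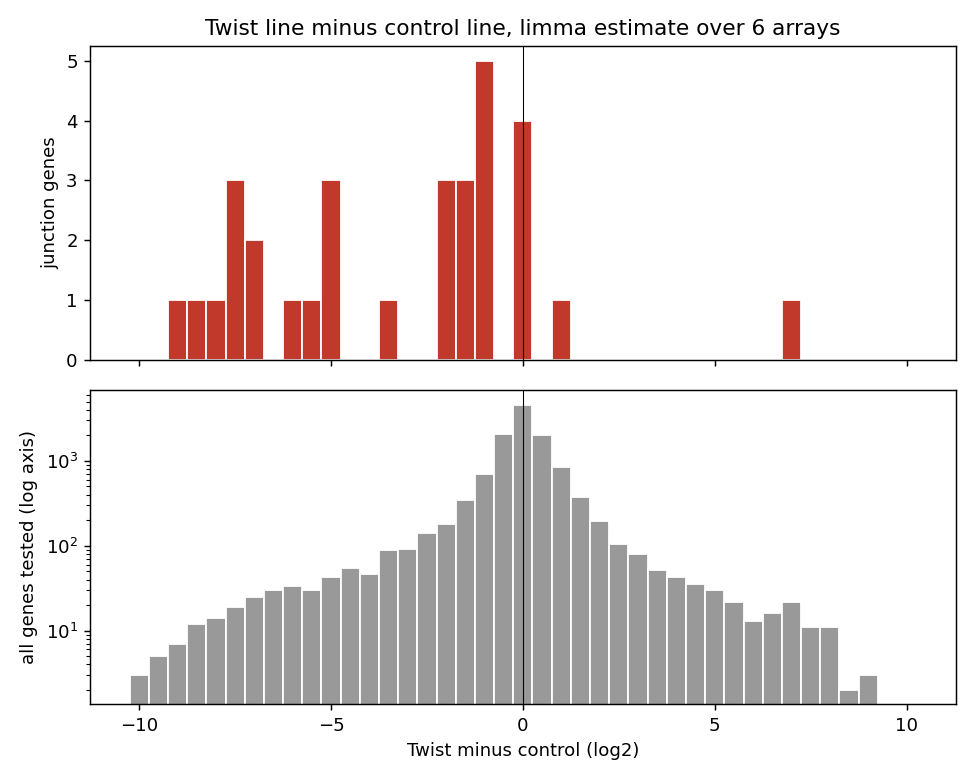
Number of genes (y axis; linear for the 31 junction genes above, log for the 12478 genes below) by fitted Twist minus control difference in log2 units (x axis). The junction genes spread to -9.01 with 1 gene near 7, while most genes lie between -0.75 and 0.75.

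Counted by probe set, the line difference leaned the same way as by gene. Of 60 probe sets of these genes above the floor, 41 were lower and 3 higher in the Twist line, against 14.0% and 13.6% of 24611 probe sets. The 3 higher were 1 of CLDN11 and 2 of PARD3. Many of the 41, such as all 4 of DSC2, were at the floor on every Twist array and could only be called lower. The CLDN11 probe set was at the floor on every control array and could only be called higher. Probe sets of 1 gene are also not independent, so this count is no separate check on the count of genes. Of 16 genes with at least 2 probe sets measured on the DMSO arrays, only PKP4 and TJP1 had probe sets with opposite signs. On these arrays alone, 21 of 31 junction genes were over 2-fold lower and 1 was over 2-fold higher in the Twist line, against 13.6% and 11.9% of all genes. With the 5 µM arrays in place of the DMSO arrays, chosen after seeing the data because the Twist DMSO array stood apart in its 3′ contrast, 20 were lower and 2 higher, against 12.6% and 12.1%. With the 10 µM arrays it was 23 lower and 3 higher of 30, against 14.1% and 14.8%.

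With Cmp302, few junction genes changed in the Twist line, and they went in both directions. In a limma fit of the trend over the levels DMSO, 5 µM and 10 µM, coded 0, 1 and 2, CLDN1 and MARVELD2 rose and CLDN11, CGN, PERP and DSG2 fell, which is 2 and 4 of 31 junction genes against 10.9% and 11.3% of all genes. These shares are near those of all genes. However, 9 of the 31 genes were at the floor on all Twist arrays, which fixes their Twist trend at 0. Only 22 junction genes could therefore be called, and all genes tested likewise include genes at the floor there. The spread in this fit is that of departures from a straight line over the levels, not a spread between replicates. The Twist DMSO array, on which each of these trends rests, had a 3′ over middle contrast of 0.955 against 0.355 and 0.445 on the Cmp302 arrays. The part of this gap in the trends was not tested, and the adjusted values given below are no test of it. None of the 6 calls was kept when the Twist DMSO array, the Twist 10 µM array or any control array was left out, which leaves 1 residual degree of freedom and 0 calls among all genes. Without the Twist 5 µM array, 4 of them were called, and MARVELD2 and PERP missed the threshold at an adjusted p of 0.057 each. The 6 calls were also lost with no filter on low signals, those of PERP and DSG2 with the median over probe sets, that of PERP without suffixed probe sets and that of CGN with the floor at the 65th percentile.

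CLDN1 had the widest change. It rose by 2.64 ± 0.50 per level in the Twist line (SE, limma adjusted p 0.0263), to 26.2-fold over DMSO at 5 µM and 39.0-fold at 10 µM. Nearly all of the difference lay between DMSO and 5 µM (4.71), with 0.58 more at 10 µM. With each gene's slope on the 3′ contrast over the control arrays subtracted, an adjustment chosen after seeing the data, the changes were 3.85 and 4.55. Over those control arrays the 3′ contrast rose with the Cmp302 level (0.28, 0.45 and 0.835). The slope therefore cannot separate RNA quality from the compound, for CLDN1 or for the genes below. The second CLDN1 probe set rose as well, by 0.98 per level (limma adjusted p 0.0236 among probe sets), from a DMSO signal at the floor. In the control line CLDN1 read 10.63, 10.35 and 9.82, with a slope of -0.40 ± 0.50 (limma adjusted p 0.787).

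MARVELD2 rose by 0.38 ± 0.10 per level (SE, limma adjusted p 0.0452), and its changes over DMSO were 0.51 at 5 µM and 0.77 at 10 µM, or 0.24 and 0.54 with the slope on the 3′ contrast subtracted. Its second probe set had changes of 0.74 and 0.90. Its neighbour OCLN had changes of 0.70 and 0.81 that did not pass the test (limma adjusted p 0.0621), and 0.71 and 0.82 with that slope subtracted. Both genes were still far below their control-line signals on every Twist array. PARD3 had changes of 0.81 and 0.92 (limma adjusted p 0.0536), and 0.16 and 0.36 with that slope subtracted. PKP1 had changes of 1.05 and 0.77 (limma adjusted p 0.199), and 0.72 and 0.48 with that slope subtracted. Its second probe set had changes of 1.10 and 1.39 and passed among probe sets, at 0.70 per level (limma adjusted p 0.0302).

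CLDN11 fell by 0.75 ± 0.11 per level (SE, limma adjusted p 0.0169), with changes of -0.94 at 5 µM and -1.50 at 10 µM, and stayed far above the floor. CGN fell by 0.81 ± 0.14 per level (limma adjusted p 0.0229), with changes of -1.21 and -1.62, which brought it further from its control-line signals. PERP fell by 0.43 ± 0.09 (limma adjusted p 0.0304) and DSG2 by 0.43 ± 0.11 (limma adjusted p 0.0397) per level. With the slope on the 3′ contrast subtracted, the changes at 5 and 10 µM were -0.30 and -0.61 for PERP, against -0.60 and -0.87 as measured, and -0.49 and -0.66 for DSG2, against -0.73 and -0.87. For CGN they were -1.55 and -1.90, and CLDN11, at the floor in the control line, has no such slope. The second PERP probe set fell by 0.42 per level, whereas the second DSG2 probe set had changes of 0.30 and 0.16 in the other direction. Past 2-fold over DMSO were PKP1 and CLDN1 upward and CGN downward at 5 µM, of 22 junction genes measured (4.42% and 5.01% of all genes), and CLDN1 upward and CLDN11 and CGN downward at 10 µM (8.04% and 8.46%). CLDN1 and CGN were the 2 genes past 2-fold at both levels. Both Cmp302 arrays were set against the same DMSO array. Between the 2 Cmp302 arrays of the Twist line, 0 of 21 junction genes were past 2-fold (0.593% of all genes higher and 0.508% lower).

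**Figure D3:**
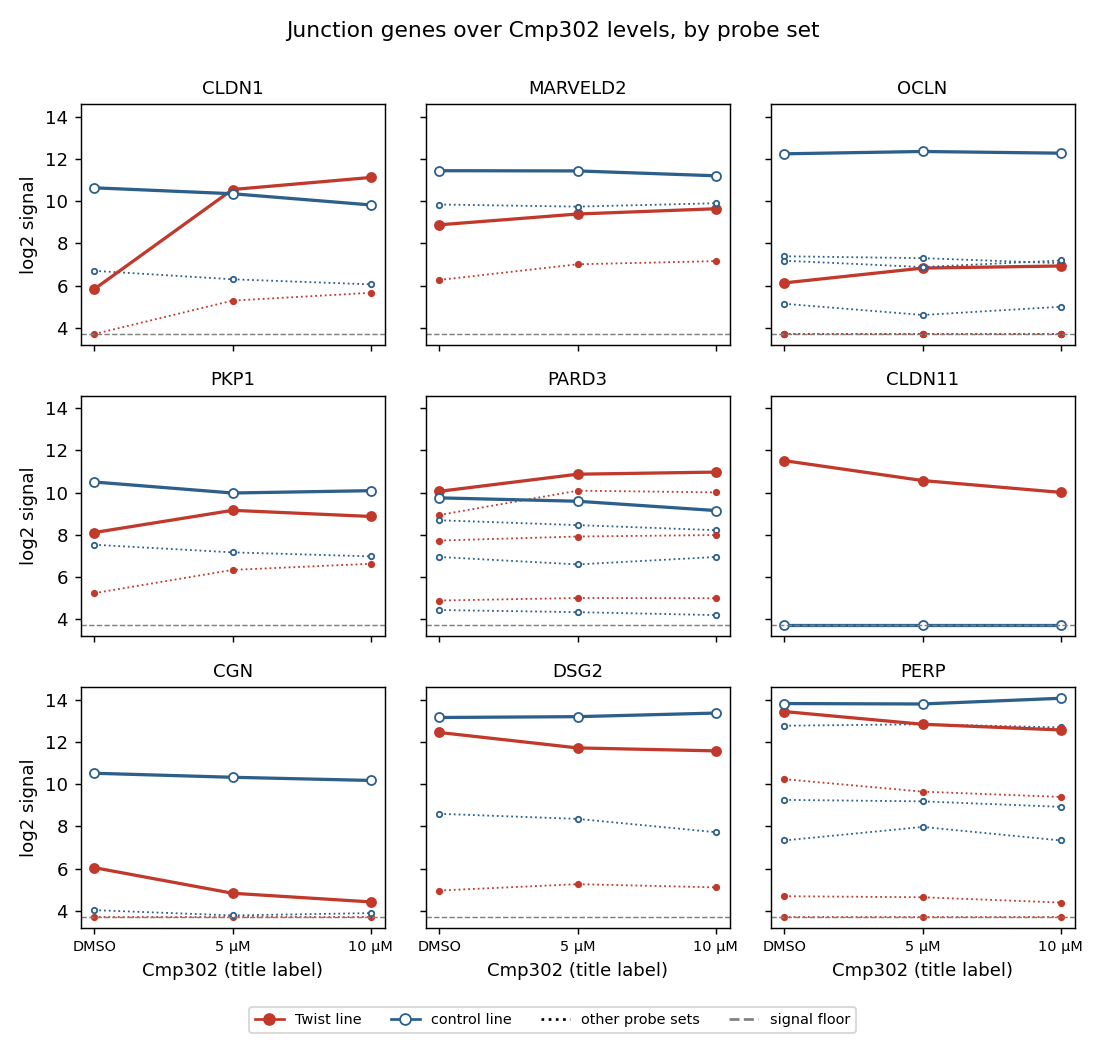
Log2 signals (y axis) of 9 junction genes on the DMSO, 5 µM and 10 µM arrays (x axis, by title), 1 array per point; thick lines join the brightest probe set and dotted lines the other probe sets of the same gene above the floor, for the Twist line (filled) and the control line (open). On its brightest probe set, CLDN1 of the Twist line reaches 10.55 and 11.12 with Cmp302, at or above the control line at 10.35 and 9.82. The other CLDN1 probe set stays below the control line, and OCLN, PKP1, CGN and MARVELD2 stay below their control-line signals on every array.

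The control line showed little. In the control-line trend, limma called 0 of 31 junction genes and 0 of 12478 genes at an adjusted p under 0.05, and at an unadjusted p under 0.05 it called 2 of 31, PKP3 and CLDN8, against 7.51% of all genes. PKP3 read 10.30, 9.73 and 9.48, a slope of -0.41 ± 0.11 (SE, limma adjusted p 0.621). No junction gene was past 2-fold over DMSO at 5 µM (0.0585% of all genes higher and 0.0668% lower) or at 10 µM (0.2% higher and 0.259% lower). The 3′ contrast of this line went up with the level, 0.28, 0.45 and 0.835, and its part in these values was not tested.

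The difference of trends between the lines was tested directly, and 0 of 31 junction genes passed in either direction, against 0.745% higher and 0.793% lower of all genes. At an unadjusted p under 0.05 limma had 11 of 31, against 39.5% of all genes. The nearest were CLDN11 (difference -0.75 ± 0.15 per level, SE, limma adjusted p 0.0539), PERP (-0.56 ± 0.13, adjusted p 0.0548), CLDN1 (3.04 ± 0.71, adjusted p 0.055) and PARD3 (0.75 ± 0.18, adjusted p 0.0565). The change of CLDN1 in the Twist line is therefore not shown to differ from that in the control line by this fit. With the levels coded 0, 1 and 1, which sets both Cmp302 arrays against DMSO, CLDN1, PARD3 and PKP1 passed upward and DSG2 downward. Under this coding 1574 of all 12478 genes passed upward and 1740 downward. The Twist-line trend then had 5 genes rising, namely CLDN1, MARVELD2, OCLN, PARD3 and PKP1, against 1951 of all genes. These shares of the 31 junction genes were near or below those of all genes.

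**Figure D4:**
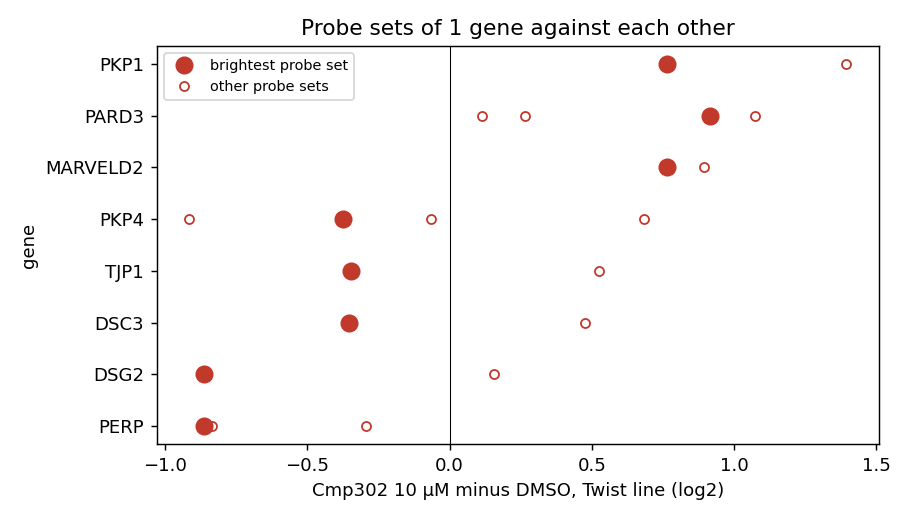
Change in the Twist line, Cmp302 10 µM minus DMSO in log2 units (x axis), for the 8 junction genes with at least 2 probe sets measured on both arrays (rows); filled points are the brightest probe set and open points the others. The probe sets of PKP1, PARD3, MARVELD2 and PERP share a side of 0, and those of PKP4, TJP1, DSC3 and DSG2 do not.

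Of 8 junction genes with at least 2 probe sets above the floor in the Twist line, 4 (DSC3, DSG2, PKP4 and TJP1) had probe sets with opposite signs at each Cmp302 level. The SD between the probe sets of a gene had a median of 0.41 at 5 µM and 0.53 at 10 µM. The plot of probe sets shows that the fall of DSG2 was read by 1 probe set only, while all plotted probe sets of MARVELD2 and PARD3 changed upward. For PARD3 these changes ran from 0.115 to 1.075, and no PARD3 probe set passed the Twist-line trend over levels 0, 1 and 2. The brightest PARD3 probe set also carries the suffix for possible cross-hybridisation.

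Other genes of cell contacts, taken from lists chosen with earlier results of these data known, put the junction genes in context. Of 15 other tight junction genes tested, 5 were lower and 2 higher in the Twist line, against 14.9% and 13.7% of all genes. PATJ, a polarity scaffold, was at the floor on all Twist arrays and read 10.15, 10.41 and 10.40 in the control line, and CXADR, an adhesion receptor, read 5.60, 4.92 and 5.33 in the Twist line and 8.99, 9.23 and 9.34 in the control line. JAM2, a junctional adhesion molecule known from endothelium, read 8.04, 8.52 and 8.22 in the Twist line and was at the floor in the control line. Genes outside the 33 thus differed in both directions, with the share of higher genes near that of all genes. Of 12 further claudins with a probe set, 10 were at the floor on all arrays, and neither CLDN23 nor CLDN15 passed the test.

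Of 11 adherens junction genes, 3 were lower and 2 higher in the Twist line, against 14.9% and 13.7% of all genes. CDH1, E-cadherin, was at the floor on all Twist arrays and read 13.24, 13.10 and 13.03 in the control line. CDH3, P-cadherin, read 4.11, 4.25 and 3.99 in the Twist line and 12.13, 11.58 and 11.45 in the control line. NECTIN3, an adhesion protein of the nectin family, read 12.16, 11.53 and 11.29 in the Twist line and 8.67, 8.72 and 8.93 in the control line. Also called were NECTIN1, lower, and CDH2, higher, with fitted differences of -2.43 and 1.17. The remaining adherens junction genes tested did not pass. Against the same shares of all genes, 3 of 5 gap junction genes were lower and 0 higher. The 3 were GJB6, GJB5 and GJB2, of which GJB6 and GJB5 were at the floor in the Twist line.

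Of 16 transcription factors of epithelia and EMT tested, 9 were lower and 5 higher in the Twist line, against 14.9% and 13.7% of all genes. GRHL2, a factor that keeps junction genes on in epithelia, was at the floor on all Twist arrays and read 11.81, 11.79 and 11.73 in the control line, and EHF, an epithelial factor of the ETS family, was at the floor on all Twist arrays too, against 11.66, 11.74 and 11.88 in the control line. ZEB2, a repressor that binds E-boxes, read 11.46, 11.06 and 10.68 in the Twist line and 4.51, 5.14 and 5.13 in the control line. No factor of this list rose or fell in the Twist-line trend.

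E-box letters were counted in the RefSeq start windows of GRCh38.p14 on both strands, with 34 windows listed for 23 of the 33 genes. CANNTG was found in 19 of the 34 windows, 55.9%, against 68.7% of 35116 windows of all genes, and in 15 of the 21 windows of the 16 genes that were lower in the Twist line, 71.4%. CACCTG or CAGGTG, which are CANNTG matches too, were found in 11 of the 34 windows, 32.4%, against 20.6% of all windows, and in 9 of the 21 windows of the lower genes, 42.9%. CATCTG or CAGATG were found in 3 windows, 8.82%, against 14.7% of all windows. These counts describe letters in the windows and were not tested. Windows of 1 gene can overlap, and a start window of PKP2, F11R, PARD3, EVPL, EPCAM, CLDN8, PPL, PARD6B, MARVELD3 or PKP3 was not used here.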

How the data were processed

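RNA of 6 samples, 1 array per group, was measured on Affymetrix U133 Plus arrays. The values the authors deposited were taken as log2 signals from their range and distribution, since no label states a unit. Per the submitters' processing notes GCOS 1.2 was used; background correction, summarisation and normalization: not given in the sources used here. Members and lists were chosen with earlier results of these data known. Of 54675 probe sets, 62 Affymetrix controls were dropped. Arrays were aligned on the mean array by the median difference of brighter probe sets (offsets -0.03 to 0.01), and signals below the overall median, 3.71, were raised to it. Each gene was read by the brightest of its probe sets, 41091 in all with 1 symbol; 1801 with several symbols, 1 of which names CLDN12, and 11721 with none were left aside.

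Tests were run in limma 3.58.1 (R 4.3.3, eBayes with a mean-variance trend, Benjamini-Hochberg threshold 0.05) on 12478 genes with signal over the floor on 2 or more arrays. The line effect came from a model with line and a treatment factor, and the trends from a model with line, level (0, 1, 2) and their product; each has 2 residual degrees of freedom. Differences of 2 arrays were only counted past 2-fold. The number of arrays limits the precision, and with 1 array per group no p-value measures a spread between replicates. In the line fit the residual spread is that of the line difference across treatments. In the trend fits it is that of departures from a straight line over the levels. All 33 members are accounted for. In the other lists the 3 genes with the widest line difference under DMSO were named by rule, together with list members at the floor. Basal and luminal mammary markers and TWIST1 served as label checks. Alternatives tried were no scaling, quantile normalization, floors at the 35th and 65th percentile, the median of a gene's probe sets, only unsuffixed probe sets, no filter, eBayes with no trend, levels coded 0, 1, 1, and fits lacking an array or a treatment pair. Chosen later, with the values in view, were the quality-matched Twist change and the line difference on Cmp302 arrays. Start windows are RefSeq's (GRCh38.p14).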

Additional observations from a re-analysis of the deposited data

How the results depend on the processing

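The count of junction genes lower in the Twist line, 23 of 31, ranged from 17 of 23 without suffixed probe sets to 26 of 31 without a DMSO array. Genes higher ranged from 1 to 3 when an array was left out, and 3 (CLDN1, CLDN11 and PARD3) were called without the Twist DMSO array, the control DMSO array or both. These settings are 1 comparison of the lines on the Cmp302 arrays, with 1 residual degree of freedom. There CLDN1, read by its brightest probe set, reversed to 0.75, over a range of -2.30 to 0.75. Of all genes, 3713 were called higher without the Twist DMSO array, against 1706 on 6 arrays. In the Twist-line trend, genes rising went from 2 to 0 with no filter and 5 with levels coded 0, 1, 1 (1951 of all genes). The range was 0 to 1 when an array was left out. Genes falling went from 4 to 1 with the median over probe sets, 2 without suffixed probe sets and 0 with no filter, with a range of 0 to 3. In the difference of trends, 0 became 3 higher and 1 lower with levels coded 0, 1, 1 (1574 and 1740 of all genes). Without each array the ranges were 0 to 1 and 0 to 2. The upper ends of these 4 ranges came without the Twist 5 µM array, and the other fits called 0 of all genes. Past 2-fold between the lines, the 1 gene higher under DMSO became 0 with the median over probe sets, 2 on the 5 µM arrays and 3 on the 10 µM arrays, and the median of -2.56 became -4.27 with the floor at the 65th percentile, -2.98 with the median over probe sets, -2.05 on the 5 µM arrays and -2.01 on the 10 µM arrays. On the 5 µM arrays, 2 higher became 1 with the median over probe sets or without suffixed ones, and the median of -2.05 became -3.71 with the higher floor, -2.61 with the median over probe sets and -1.80 without suffixed ones. On the 10 µM arrays, 3 higher became 1 and the median of -2.01 became -2.41 with the median over probe sets, and -3.46 with the higher floor. In the Twist line at 5 µM, 2 genes past 2-fold upward became 1 with the quality-matched change, 1 downward became 0 with the higher floor, the median over probe sets or no suffixed ones, and the median of -0.15 became 0.26 with the median over probe sets. At 10 µM, 1 upward became 2 and 2 downward became 0 with the median over probe sets, 2 downward became 1 with the higher floor or without suffixed ones, and the median of -0.24 became 0.11 with the median over probe sets. In the control line at 10 µM the median of 0.02 became -0.23 with the median over probe sets. The cause of these moves was not tested, apart from the fewer genes tested that some settings leave. Of the values of single genes, 1436 kept their side, 56 lost a call, 28 gained one, 49 with no test moved and 3 reversed, and 249 counts and medians stayed close while 49 moved. The calls lost with no filter included PKP1 and DSG2 between the lines. The line fit compared the lines within the 3 treatments. No paired analysis by replicate number was possible because each group has 1 array and the labels carry no replicate numbers. Signals at the floor limit 10 genes to bounds in 1 line.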
